A study of Mus musculus with 15 samples.

Results

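The question here is which mouse liver genes answered 14 daily injections of the thyroid hormone T3 differently from a single one. It was read from 12 of the 15 arrays of the series, 3 in each of 4 groups, as the difference of effects: chronic T3 minus its own baseline B, minus the quantity acute T3 minus its own baseline A. All values are on the log2 scale, so a difference of effects of 1 means that the response to 14 injections was 2-fold above that to 1, and a negative value that it was below it. The same number can be written as the direct difference between the T3 groups (chronic T3 minus acute T3) less the gap between the untreated groups (baseline B minus baseline A). Both terms are given beside the main results, because they show how much of a difference came from the T3 arrays and how much from the baselines.

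All mice were male C57BL/6, labelled 8 weeks old, on a 12 h light and dark cycle with free food. The chronic T3 group received T3 (liothyronine, 20 µg per 100 g body weight, into the abdominal cavity) once daily, 14 times, and was killed 6 h after the last dose. Its untreated baseline B belonged to the same experiment subset. The acute T3 group was killed 6 h after 1 injection of T3 at the same dose of 20 µg per 100 g body weight. It belonged to the other subset together with its untreated baseline A. No injections are described for either baseline, so effects of T3 and of being injected cannot be told apart, and the hour of killing is not given in the sources used here. Nothing states that each array is a separate animal, so the errors and p-values measure the spread between samples, which may be technical.

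T3 enters hepatocytes and binds nuclear thyroid hormone receptors, which sit on DNA with retinoid X receptors and switch target genes on when the hormone is bound. In liver the hormone is known for raising lipogenic genes such as Thrsp, the deiodinase Dio1 and the mitochondrial glycerol-3-phosphate dehydrogenase Gpd2, and for acting on cholesterol and bile acid synthesis. Given for days it is also known to enlarge the rodent liver and to stimulate hepatocyte division, and it interacts with growth hormone, which sets many sex-biased liver genes.

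The 12 arrays had mean signals between 435 and 675 before normalization, with chronic T3 replicates 3 and 2 the dimmest (435 and 438). Between 11049 (baseline B replicate 3) and 14679 of 45281 probes were detected on an array. After normalization the arrays correlated at 0.919 to 0.992 with each other over 8976 genes, so that none repeated another. Hepatocyte markers were well detected everywhere: the 12 tested had mean levels of 12.4 to 12.6 on chronic T3 arrays, 12.7 to 12.9 on baseline B, 12.4 to 12.5 on acute T3 and 12.5 to 12.7 on baseline A. A gene was called if its adjusted p was under 0.05 in limma's moderated test (Benjamini-Hochberg over all 8976 genes). Exact permutation over groups of 3 arrays allows no p below 0.1, and single genes were therefore tested with limma alone. A probe with a detection p of 0.01 or more on every array of a group is called not well above background there, and a fold against such a group is a lower bound. The bound sets the mean of the brighter group against, for each array of the dim one, the lowest signal among its detected probes or the probe itself if higher. Fitted differences of such genes are no bounds. The number of arrays limits the precision: the median standard error was 0.26 for a difference of effects, against 0.18 for a comparison of 2 groups.

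Of 8976 genes, 641 differed between their chronic and acute effects (7.14% of all), 343 of them higher after 14 injections (3.82%) and 298 lower (3.32%). Here and below, higher or lower after 14 injections refers to the difference of effects. Levels on the T3 arrays themselves can differ the other way. Counts of list members below are to be read against the shares of all genes given here. The single comparisons behind them called 1296 genes in the direct difference (14.4%), 550 higher (6.13%) and 746 lower (8.31%), and 782 in the gap between baselines (8.71%), 245 higher in B (2.73%) and 537 lower (5.98%). They called 2052 in the chronic effect (22.9%), 1111 higher (12.4%) and 941 lower (10.5%), and 190 in the acute effect (2.12%), 132 higher (1.47%) and 58 lower (0.646%). A chronic effect larger in size than the acute one was seen in 562 of the 641 genes (87.7%, and 65.3% of all genes tested). In 549 the chronic effect alone was called, in 31 the acute effect alone, and in 45 neither. Both were called with the same sign in 10 genes and with opposite signs in 6. Leaving out 1 array moved the gap count to between 128 and 1717 and the acute count to between 48 and 235. The count of differing genes depended on single arrays: it was 311 without acute T3 replicate 1, 350 without acute T3 replicate 3, 366 without baseline B replicate 3 and 411 without baseline A replicate 1. In all, 273 of the 641 genes stayed called whichever of the 12 arrays was left out, 147 higher and 126 lower.

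**Figure D1:**
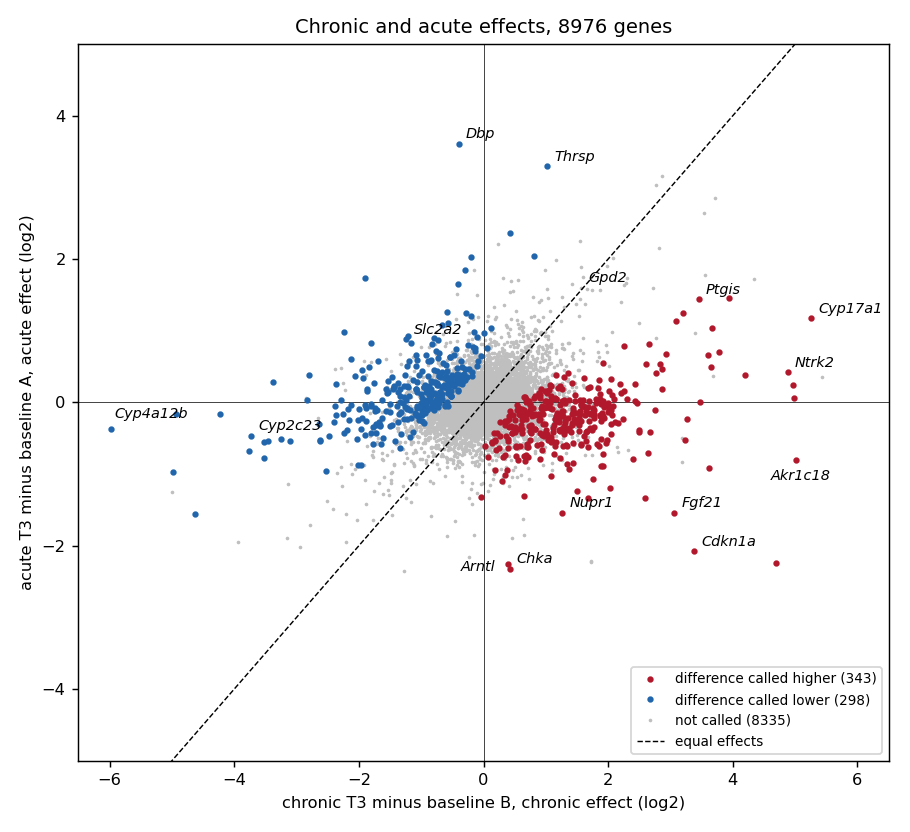
Chronic effect (horizontal, chronic T3 minus baseline B, log2) against acute effect (vertical, acute T3 minus baseline A, log2) for each of 8976 genes. The 343 genes called higher (red) lie to the right of the dashed line of equal effects and the 298 called lower (blue) to its left. Cdkn1a and Slc2a2 lie in quadrants of opposite sign, and Gpd2 lies on the line.

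The baselines supplied part of these differences. In 563 of the 641 genes the gap had the sign that adds to the difference of effects (87.8%, and 72% of all genes). The subtraction itself favours that sign, and choosing genes by a large difference favours it further. The higher share among called genes is therefore no test of the baselines' part. The gap was larger in size than the direct difference in 194 (30.3%, and 50.4% of all genes), which are differences held more by the untreated arrays than by the T3 arrays. In 150 genes the gap was under 0.2 in size (23.4%, and 40.4% of all), so that the baselines changed the difference by less than 0.2. These kinds are taken in turn below, from the cell cycle inhibitor Cdkn1a, in which both terms were large, to Thrsp and clock genes, in which the gap was the larger. Lists of P450, steroid and macrophage genes, with small median gaps, follow.

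**Figure D2:**
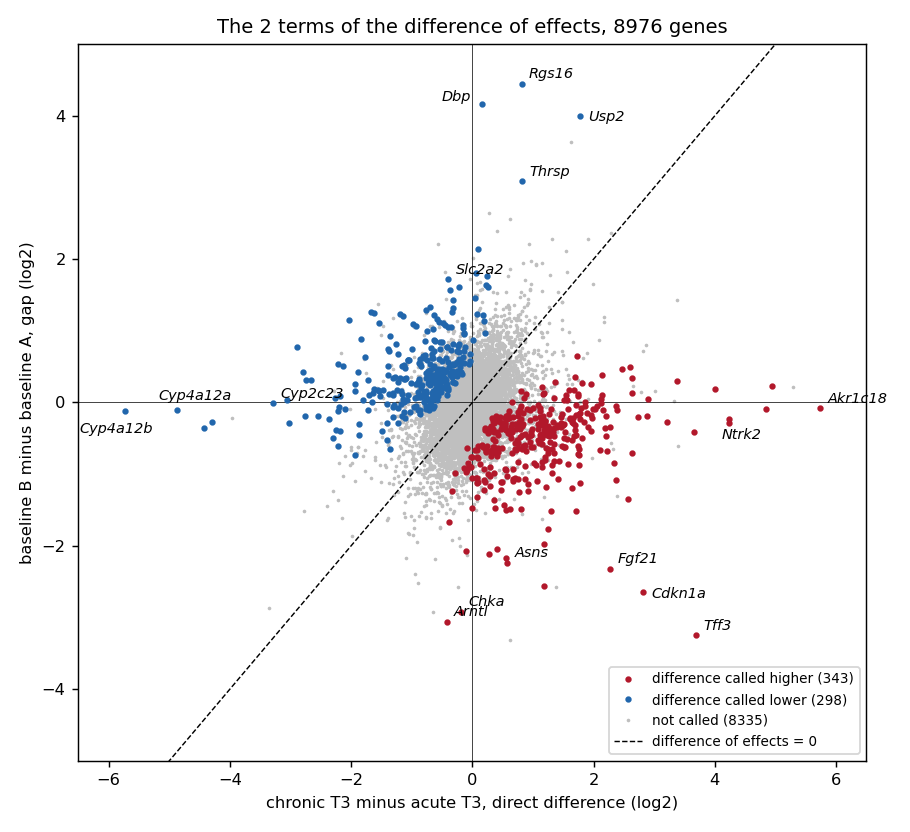
Direct difference (horizontal, chronic T3 minus acute T3, log2) against the gap (vertical, baseline B minus baseline A, log2) for each of 8976 genes, with the dashed line marking a difference of effects of 0. Dbp, Usp2, Rgs16 and Thrsp stand high on the vertical axis and Arntl and Chka low on it, Cyp4a12b and Akr1c18 lie far out along the horizontal one, and Cdkn1a, Fgf21 and Tff3 are displaced on both.

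Cdkn1a (chromosome 17), the gene of p21, which blocks cyclin-dependent kinases and so halts the cell cycle, went opposite ways. Its normalized levels were 9.0, 8.66 and 8.71 on the chronic T3 arrays and 5.38, 5.53 and 5.30 on those of baseline B. They were 6.03, 6.06 and 5.85 after acute T3 and 7.98, 7.62 and 8.56 in baseline A. Chronic T3 stood above baseline B and acute T3 below baseline A, with no overlap in either pair. It was not well above background on any baseline B array, and was at least 5.05-fold higher after chronic T3 (adjusted p = 1.15e-06). After acute T3 it was 2.07 lower than in baseline A (adjusted p = 0.000561). The fitted difference of effects was 5.46 ± 0.31 (SE, n = 3 arrays a group; limma adjusted p = 1.56e-06), and 5.52 and 3.02 at its other probes, both called. The direct difference was 2.81 and the gap -2.65, in that Cdkn1a was at least 3.04-fold lower in baseline B than in baseline A. Its difference of effects lay between 5.20 and 5.67 whichever array was left out.

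**Figure D3:**
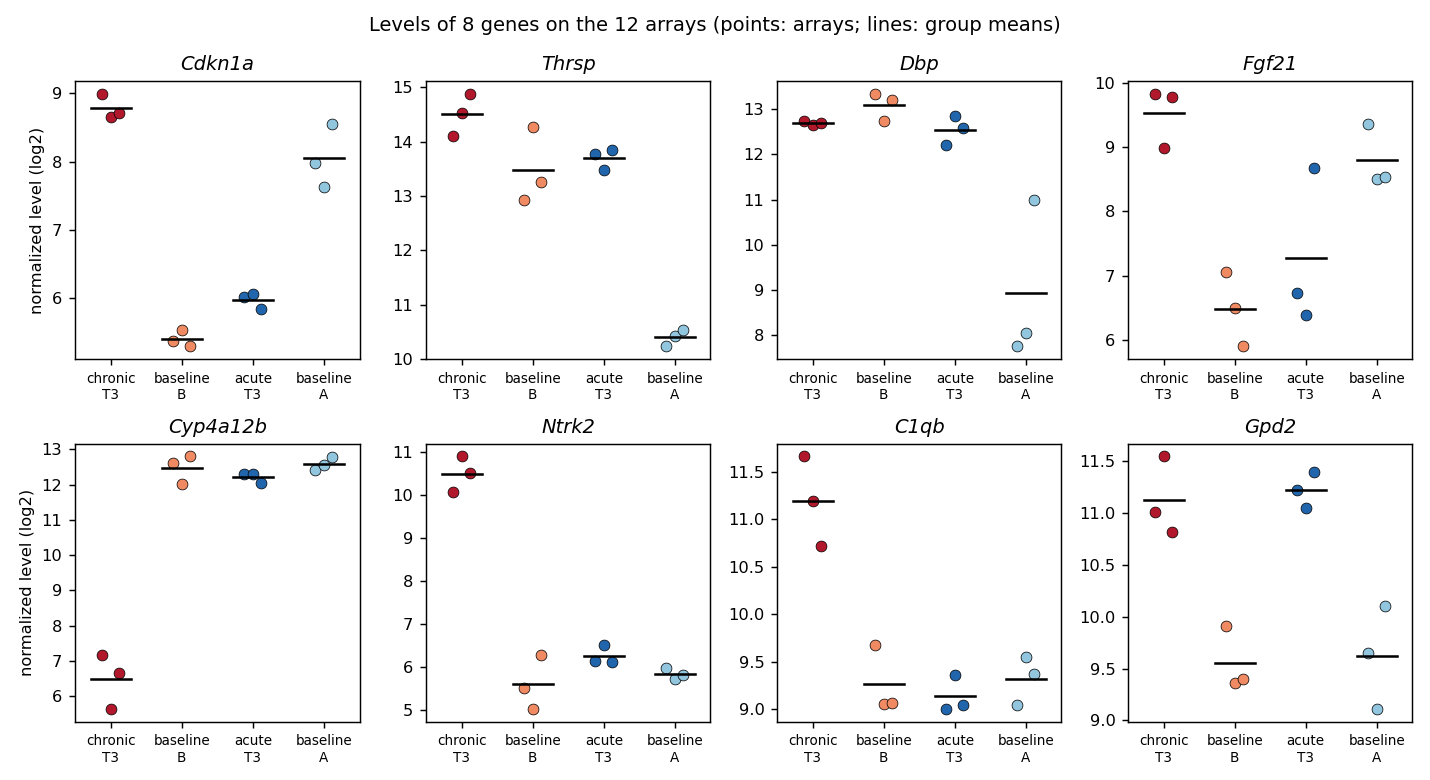
Normalized level (log2, vertical) of 8 genes on the 12 arrays, in the order chronic T3, baseline B, acute T3 and baseline A, with points for arrays and lines for group means. Cdkn1a is high after chronic T3 and in baseline A, Thrsp and Dbp are low in baseline A alone, Cyp4a12b, Ntrk2 and C1qb depart after chronic T3 alone, and Gpd2 is high in both T3 groups.

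Some genes that drive replication were also higher after 14 injections. Of 28 listed genes of cell cycle and DNA replication 18 were tested, of which 7 were higher after 14 injections than after 1, against 3.82% of all genes. None was lower and 11 did not pass, with a list median of 1.29 against 0.0067 for all genes. A gene detected after chronic T3 alone could enter the test through that group. The count and the median are therefore no separate support for a rise of the list. Mcm10, a replication factor from another list, was called the other way (-1.81, adjusted p = 0.00256). The 7 higher members were Cdkn1a, the cyclin Ccnd1, the helicase subunits Mcm2, Mcm4, Mcm5 and Mcm6, and Uhrf1, which carries DNA methylation through replication. Mcm5 stood at 9.46, 8.83 and 8.32 after chronic T3, 6.80, 6.10 and 6.53 in baseline B, 6.37, 7.12 and 6.10 after acute T3 and 7.07, 7.42 and 7.48 in baseline A. All chronic T3 arrays lay above the other 9. Its difference of effects was 3.18 ± 0.45 (adjusted p = 0.00157), of which the direct difference was 2.34 and the gap -0.84. Mcm6 followed with 2.30 ± 0.35 (adjusted p = 0.00292), and its other probes gave 2.04 and 2.74, both called. Uhrf1 was at a fitted 3.34 ± 0.63 with no baseline B array well above background. Ccnd1, which starts the passage to S phase, was at 2.41 ± 0.58 (adjusted p = 0.0264) with a gap of -0.05. It was not called when chronic T3 replicate 1, baseline B replicates 1 or 2, acute T3 replicates 1 or 3 or baseline A replicate 3 was left out (adjusted p up to 0.0713). Its other probes gave 2.38, called, and 1.86, not called. Of 16 tested p53 targets and growth-arrest genes Cdkn1a alone was called, while the stress-induced Ddit4 was at 2.97 ± 0.88 (adjusted p = 0.0605).

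The other 5 genes with opposite calls had smaller effects. Higher after 14 injections was Nupr1, a stress-induced chromatin protein, with a chronic effect of 1.27, an acute effect of -1.54 and a difference of effects of 2.81 ± 0.45 (adjusted p = 0.00363). Lower were Slc2a2, the hepatocyte glucose transporter GLUT2, Rassf3 of the Ras association domain family, Olfml1, and Vti1a of vesicle fusion. Slc2a2 stood at 11.12, 11.26 and 11.44 after chronic T3, against 12.52, 12.63 and 12.38 in baseline B. After acute T3 it stood at 11.93, 11.22 and 11.86, against 10.92, 10.85 and 10.60 in baseline A. Chronic T3 lay below its baseline and acute T3 above its own, with no overlap. The difference of effects was -2.12 ± 0.25 (adjusted p = 0.000459), made of a direct difference of -0.40 and a gap of 1.72, and its dimmer probes gave -2.74 and -2.20 without passing. Rassf3 had -1.77 ± 0.17 (adjusted p = 8.87e-05), Olfml1 -1.60 ± 0.24 (adjusted p = 0.00280) and Vti1a -1.19 ± 0.21 (adjusted p = 0.00615), and the dimmer probes of Vti1a gave -0.50 to -0.13, not called. The differences stayed called in each fit without 1 array, but the opposite calls themselves were less stable. The acute call was lost without any 1 of the 6 arrays compared for Nupr1, without any of 5 for Slc2a2, Rassf3 and Vti1a and any of 4 for Olfml1 (adjusted p up to 0.126). The chronic call was lost without any of 4 for Vti1a and without baseline B replicate 3 for Nupr1, whose chronic effect was 0.81 without chronic T3 replicate 1. Its direct difference of 1.29 was 0.84 without that array. Of the 6 genes, Cdkn1a alone kept both calls in every such fit.

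Thrsp (chromosome 7), also called Spot 14, a nuclear protein of lipogenesis and a classical T3 target, answered less to 14 injections than to 1. It stood at 14.11, 14.54 and 14.88 after chronic T3, 12.92, 14.27 and 13.25 in baseline B, 13.77, 13.48 and 13.84 after acute T3, and 10.23, 10.43 and 10.53 in baseline A. The baseline A arrays were below all others, while one baseline B array reached into the chronic T3 range. The chronic effect was 1.03, not called in 4 of the 6 fits without 1 of its arrays (adjusted p up to 0.144), and the acute effect was 3.30, called in all 6. The difference of effects was -2.27 ± 0.46 (adjusted p = 0.0119), or -3.01 at a dimmer probe, also called. Between the T3 arrays themselves Thrsp was 0.81 higher after chronic than after acute T3 (adjusted p = 0.114), and the gap was 3.09 (adjusted p = 0.000351). With both T3 groups read against the same 6 baseline arrays the value is this 0.81, of the other sign.

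Most other genes listed as T3-induced did not pass the test of the difference. Of 21 tested T3-induced liver genes, 3 had a higher difference of effects (Fgf21, Hr and the transporter Slc16a6) and Thrsp a lower one, with a list median of -0.034. The chronic effect was called in 10 of them and the acute effect in 7, all upward, against 12.4% and 1.47% of all genes. Without baseline A replicate 3 a second member was called lower. Gpd2, the mitochondrial enzyme that passes electrons from glycerol-3-phosphate to the respiratory chain, stood at 11.01, 11.54 and 10.81 after chronic T3 and 11.22, 11.05 and 11.39 after acute T3. In baseline B it stood at 9.91, 9.36 and 9.40, and in baseline A at 9.65, 9.11 and 10.10. Both T3 groups were above both baselines and overlapped each other, and the difference of effects was -0.03 with a 95% interval of -0.88 to 0.82. Dio1, the deiodinase that makes and clears T3, had chronic and acute effects of 1.54 and 1.44 and a difference of 0.10 (-0.73 to 0.93). Cyp7a1, which opens the classical route from cholesterol to bile acids, had effects of 1.87 and 1.56 and a difference of 0.31 (-0.69 to 1.31). The acute calls were lost in 2 of the 6 fits without 1 array for Gpd2, 3 for Dio1 and 5 for Cyp7a1 (adjusted p up to 0.114). These intervals still allow differences of nearly 1 in size or more, so that equal effects are not shown.

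Bcl3, an NF-kappa B cofactor (-0.43, interval -1.28 to 0.42), the malic enzyme Me1 (-0.08, -0.94 to 0.77), the transcription factor Klf9 (0.05, -0.39 to 0.50) and Pck1 of gluconeogenesis (-0.47, -1.19 to 0.24) did not pass either. Fitted chronic and acute folds were 2.05 and 2.75 for Bcl3 and 1.56 and 1.65 for Me1. They were 0.93 and 0.90 for Klf9 and 0.73 and 1.01 for Pck1. The value of Klf9 near 0 is therefore no shared rise. G6pc, which releases glucose, was at -1.22 (-2.49 to 0.05), the fatty acid synthase Fasn at -1.25 (-2.50 to -0.01) and Cyp8b1 of cholic acid synthesis at -0.99 (-1.68 to -0.31), with adjusted p of 0.234, 0.210 and 0.0786. The immediate early gene Fos was lower after both regimens, with a chronic effect of -2.21. It was not well above background on any acute T3 array, at least 2.89-fold below baseline A (fitted effect -1.95). That acute call was lost in 3 of 6 fits without 1 array. The fitted difference of Fos was -0.25 (adjusted p = 0.817), which rests on these dim arrays. Hr, a nuclear receptor corepressor, was not well above background in baseline B and was at least 3.11-fold higher after chronic T3. Its fitted difference was 2.36 ± 0.54 (adjusted p = 0.0216), which missed the threshold when acute T3 replicate 1 or baseline B replicate 1 was left out, with an adjusted p of up to 0.0542. Slc16a6 was at 1.95 ± 0.45 and missed the threshold without acute T3 replicates 1 or 3, chronic T3 replicate 2 or baseline B replicate 3. Without acute T3 replicate 1 a single member of the list was called higher.

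**Figure D4:**
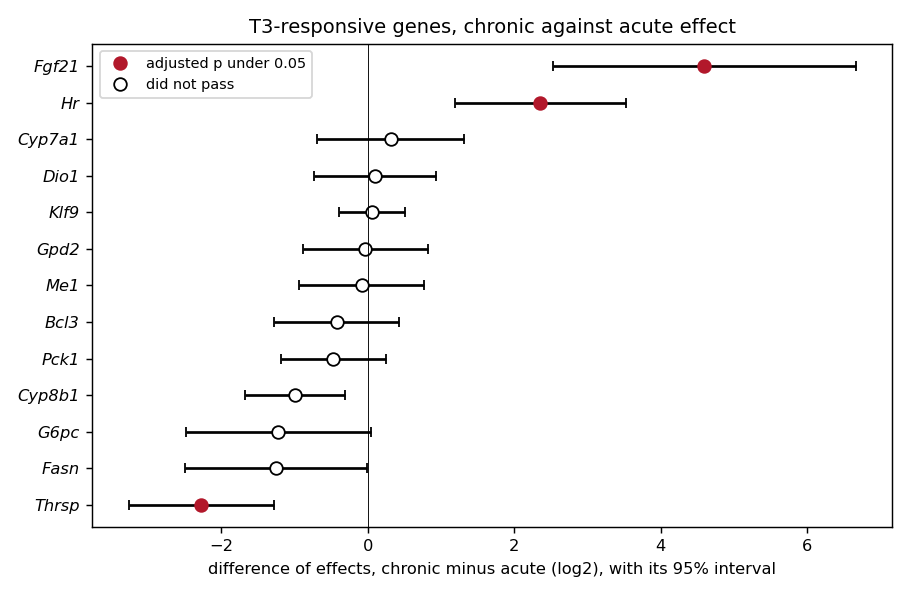
Difference of effects (horizontal, chronic minus acute, log2) of 13 genes set for the question as T3-responsive with its 95% interval, filled where the adjusted p was under 0.05. Fgf21 and Hr lie right of 0 and Thrsp left of it, while the intervals of Gpd2, Dio1, Klf9 and Me1 are centred near 0. Klf9 itself did not rise after either regimen.

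Clock genes had the largest median gap of all lists. The liver clock is a loop in which ARNTL (BMAL1) and CLOCK switch on period and cryptochrome genes and the output factors Dbp and Tef, whose proteins and their targets then cycle over the day. Of 13 tested members, 2 had a higher difference of effects (Arntl and Clock) and 5 a lower one (Dbp, Usp2, Tef, Nr1d2 and Cry2). Of all genes 3.82% were called higher and 3.32% lower. For Arntl, Clock, Dbp and Usp2 the direct difference between the T3 groups had the other sign. The list median was -1.04 for the difference, -0.17 for the chronic effect, 0.80 for the acute effect and 1.13 for the gap. The gap was called in 10 of the 13, 8 upward and 2 downward, the acute effect in 7 (5 and 2) and the chronic effect in 1, downward. Of all genes 8.71% were called in the gap, 2.12% in the acute effect and 22.9% in the chronic effect. Acute and gap values share the baseline A arrays, and are therefore not separate evidence.

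Dbp stood at 12.74, 12.66 and 12.69 after chronic T3, 13.34, 12.73 and 13.21 in baseline B, 12.20, 12.85 and 12.57 after acute T3, and 7.76, 8.06 and 10.99 in baseline A. The 9 arrays outside baseline A lay within a narrow band far above it, and baseline A replicate 3 lay between. The chronic effect was -0.40, the acute effect 3.61 and the difference -4.0 ± 0.85 (adjusted p = 0.0149), while chronic and acute T3 differed directly by 0.15. Without baseline A replicate 3 the difference was -5.03. Usp2, a rhythmic ubiquitin protease, was at -2.23 ± 0.61 with a gap of 4.0, but was 1.77 higher after chronic than after acute T3 (adjusted p = 0.0167, and 0.0806 without acute T3 replicate 1). Its difference lost the call in 9 of the 12 fits without 1 array (adjusted p up to 0.110), being kept without baseline A replicate 3, acute T3 replicate 1 or chronic T3 replicate 3. A dimmer Usp2 probe gave -1.13, not called.

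Arntl ran the other way, at 5.95, 6.21 and 5.16 after chronic T3, 5.20, 5.75 and 5.22 in baseline B, 6.52, 6.01 and 6.07 after acute T3, and 8.74, 8.59 and 8.02 in baseline A. It was high in baseline A alone and not well above background on any baseline B array. The fitted difference was 2.64 ± 0.42 (adjusted p = 0.00354), against a direct difference of -0.43 (adjusted p = 0.359), and Arntl was at least 4.0-fold lower in baseline B than in A. Clock was at 0.70 ± 0.16 (adjusted p = 0.0229), which became 0.0629 when acute T3 replicate 3 was left out. Chka, the choline kinase that starts phosphatidylcholine synthesis, had the same pattern, with 2.74 ± 0.37 (adjusted p = 0.00117), a direct difference of -0.18 and levels at least 3.31-fold lower in baseline B than in A. The calls for Tef (-1.41), Nr1d2 (-1.04) and Cry2 (-0.94) were lost in 6, 4 and 10 of the 12 fits. Dropping baseline A replicate 3 gave 8 lower members. A single lower member remained called with chronic T3 replicate 1, baseline B replicate 3, acute T3 replicate 2 or baseline A replicate 1 dropped. There were 2 with acute T3 replicate 3 or baseline A replicate 2 dropped, and 3 with chronic T3 replicate 2 or baseline B replicates 1 or 2 dropped. Without acute T3 replicate 3 Arntl was the single higher member.

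Several genes of glucose and lipid handling also had a gap larger than their direct difference. Of 18 tested genes of glucose and glycogen metabolism 3 had a lower difference of effects, against 3.32% of all genes, and none a higher one. They were Slc2a2, the liver pyruvate kinase Pklr, and Ugp2, which makes the UDP-glucose for glycogen. The list median was -0.60. Pklr was at -2.05 ± 0.51 (adjusted p = 0.0291) with a direct difference of 0.09 and a gap of 2.15, and was not called when chronic T3 replicate 1, acute T3 replicates 1 or 3 or baseline A replicates 1 or 3 was left out (adjusted p up to 0.0770). Ugp2 was at -1.28 ± 0.18 (adjusted p = 0.00154), with direct difference and gap of -0.54 and 0.75. Without baseline A replicate 2 the list had 5 lower members. Of 20 fatty acid synthesis genes 3 had a lower difference of effects (Thrsp, Pklr and Srebf1), against 3.32% of all genes, and none a higher one, and the median was -0.13. Between the T3 arrays themselves Thrsp and Pklr were not lower after chronic T3.

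Srebf1, the transcription factor that switches on lipogenic genes, stood at 8.11, 8.61 and 8.60 after chronic T3 and 9.90, 9.84 and 9.27 in baseline B. It stood at 9.29, 9.27 and 8.99 after acute T3 and 8.78, 8.69 and 8.55 in baseline A. Chronic T3 lay below its baseline and acute T3 above its own without overlap, and the difference of effects was -1.74 ± 0.27 (adjusted p = 0.00305). The acute effect itself did not pass (0.51). Rgs16, which shortens G protein signals, had -3.63 ± 0.86 (adjusted p = 0.0251) with a direct difference of 0.82 and a gap of 4.45, and was not called when chronic T3 replicate 1, baseline B replicate 3, acute T3 replicate 3 or baseline A replicate 1 was left out (adjusted p up to 0.0665). Lpl, the lipoprotein lipase, was at 2.73 ± 0.67 with a gap of -2.18, and Plin4, a lipid droplet coat protein, at 3.01 ± 0.76 with a gap of -1.77. Their calls were lost in 6 and 10 of the 12 fits (adjusted p up to 0.0822). Ppara, the receptor that drives fatty acid oxidation, was at -1.74 ± 0.37 (adjusted p = 0.0152), mostly between the T3 arrays (-1.0, against a gap of 0.74).

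Some genes of the integrated stress response were higher after 14 injections. This pathway slows translation and raises the factor ATF4, whose targets supply amino acids, and the core of the DNA element that ATF4 and C/EBP proteins share is written TGATGNAA, where N is any base. Of 19 tested genes of the integrated and ER stress response 6 were higher (Fgf21, Psat1, Asns, Nupr1, Atf5 and Ddit3), against 3.82% of all genes. None was lower and 13 did not pass, with a median of 0.59. A gene detected after chronic T3 alone, such as Psat1, could enter the test through that group. The count and the median are therefore no separate support for a rise of the list. The median was 0.35 without baseline A replicate 1, and the count was 4 in 5 of the 12 fits without 1 array. Ddit3, which encodes CHOP, also belongs to the unfolded protein response of the endoplasmic reticulum, while the chaperone genes Hspa5 and Hsp90b1 did not pass. The chronic effect was called upward in 8, the acute effect downward in 1, and the gap downward in 4, against 12.4%, 0.646% and 5.98% of all genes. The element was sought on both strands in the 250 bases before each RefSeq gene start (mouse GRCm38.p6), where it occurs in 1134 of 32851 promoters (3.45%). It was present at 3 of the 6 called members and at 3 of the 13 others, counted by gene if any of its promoters matched. The 3.45% counts single promoters, while Atf5, Psat1 and Vldlr had 2 each. The windows of the 3 called genes, all on the minus strand, are shown because they hold the element, with the matching letters in capitals. The match begins 23 bases before the start in Asns (chr6:7693210-7693459), 139 in Fgf21 (chr7:45615491-45615740) and 110 in Nupr1 (chr7:126625471-126625720).
Asns promoter: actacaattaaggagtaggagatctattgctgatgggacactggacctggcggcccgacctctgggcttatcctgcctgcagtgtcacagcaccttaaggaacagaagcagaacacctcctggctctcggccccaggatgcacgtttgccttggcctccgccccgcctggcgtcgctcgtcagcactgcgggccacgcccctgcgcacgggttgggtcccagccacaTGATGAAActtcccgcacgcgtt
Fgf21 promoter: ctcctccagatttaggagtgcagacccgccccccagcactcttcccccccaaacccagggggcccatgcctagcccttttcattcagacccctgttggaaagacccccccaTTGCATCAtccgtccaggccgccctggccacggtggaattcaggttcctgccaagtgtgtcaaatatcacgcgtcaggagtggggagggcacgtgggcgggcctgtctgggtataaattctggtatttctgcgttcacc
Nupr1 promoter: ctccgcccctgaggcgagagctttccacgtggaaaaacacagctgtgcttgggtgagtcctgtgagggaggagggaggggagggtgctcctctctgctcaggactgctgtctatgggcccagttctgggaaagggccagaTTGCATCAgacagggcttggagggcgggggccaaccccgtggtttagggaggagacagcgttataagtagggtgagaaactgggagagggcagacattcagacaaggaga
A match is a description of these letters and no evidence of binding.

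Fgf21, a liver hormone of fasting and amino acid shortage, stood at 9.84, 8.99 and 9.79 after chronic T3, 7.06, 6.49 and 5.90 in baseline B, 6.73, 6.39 and 8.68 after acute T3, and 9.37, 8.51 and 8.53 in baseline A. Chronic T3 lay above baseline B on every array, while acute T3 replicate 3 overlapped baseline A. The difference was 4.6 ± 0.96 (adjusted p = 0.0138), from a direct difference of 2.27, which was not called in 4 of the 6 fits without 1 array, and a gap of -2.32, and the acute effect of -1.54 did not pass (adjusted p = 0.304). The gap had an adjusted p of 0.0504, and 0.0401 with the replicate number as a block. Psat1, of serine synthesis, was well above background after chronic T3 alone, at least 4.61-fold above baseline B and at least 7.02-fold above acute T3. Atf5, a relative of ATF4 in hepatocytes, was at 1.74 ± 0.21 (adjusted p = 0.000488) with direct difference and gap of 0.67 and -1.07. Asns, the asparagine synthetase, was at 2.81 ± 0.75 (adjusted p = 0.0385) with a gap of -2.24. It lost the call in 9 of the 12 fits and with the replicate number as a block (adjusted p = 0.0642), and Ddit3 (1.01 ± 0.27) also in 9. Outside the list, the trefoil peptide gene Tff3 had the largest value among named genes, 6.93 ± 1.25 (adjusted p = 0.00683), with direct difference and gap of 3.68 and -3.25. That gap was not called in any of the 6 fits without 1 of its arrays (adjusted p up to 0.108), nor the direct difference without acute T3 replicates 1 or 3. Mmd2 was at 3.15 ± 0.58 (adjusted p = 0.00771), from 1.18 and -1.97.

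**Figure D5:**
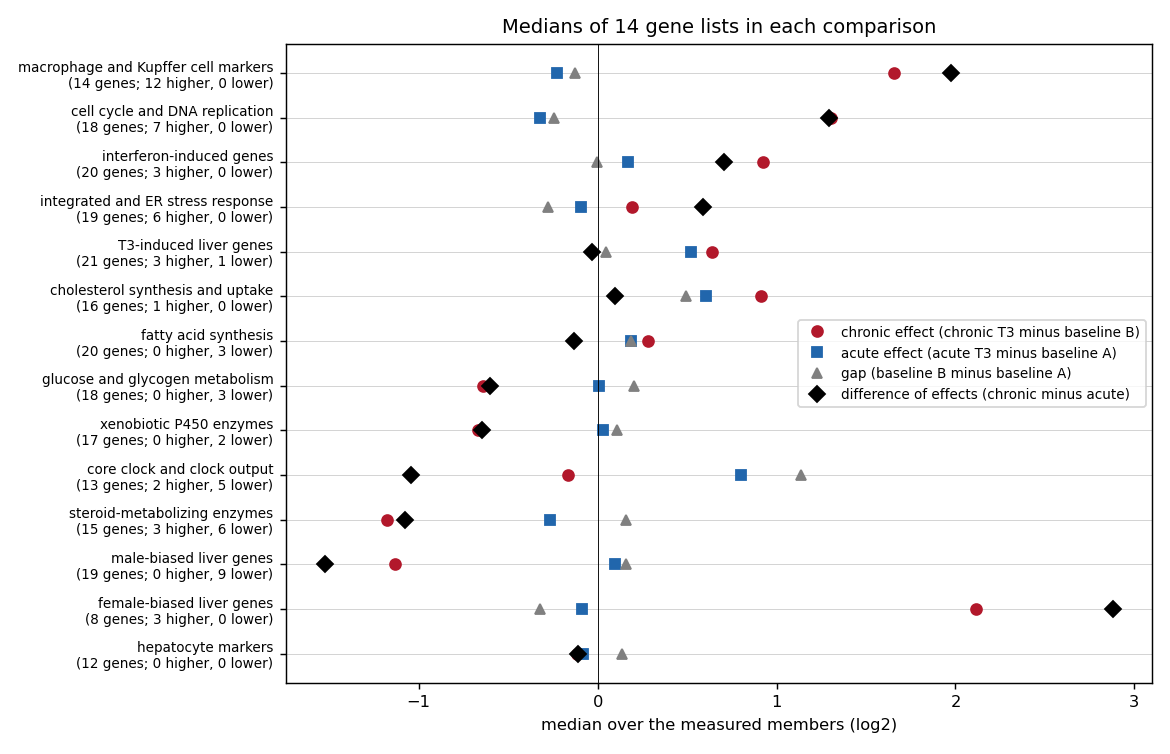
Median over the tested members (horizontal, log2) of 14 gene lists for the chronic effect (circles), the acute effect (squares), the gap between baselines (triangles) and the difference of effects (diamonds), with the number of members called in the difference beside each name. Of these lists, female-biased genes have the highest median difference at 2.88, followed by macrophage markers at 1.98, and male-biased genes the lowest at -1.52, with gaps of -0.32, -0.13 and 0.16, while the clock list has a gap of 1.13 and a chronic median near 0. The female-biased median rests on 8 tested of 20 listed genes, which could enter through the chronic T3 arrays.

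Other genes had a small gap, so that their difference lay mainly between the T3 arrays. They included genes whose liver level differs between males and females under growth hormone. Macrophage markers, described further on, also differed there: their mean level was 9.71 to 10.62 on chronic T3 arrays and 8.24 to 8.97 on the other 9, and their part in these results and in those on replication genes was not tested. Of 19 tested male-biased genes 9 were lower after 14 injections than after 1, against 3.32% of all genes, and none higher, with a median of -1.52. The median was -1.13 for the chronic effect, 0.10 for the acute effect and 0.16 for the gap, and 11 members were called lower in the chronic effect against none in the acute effect. Of all genes 10.5% were called lower in the chronic effect and 0.646% in the acute effect. Cyp4a12b, an omega-hydroxylase of fatty acids, stood at 7.18, 5.63 and 6.65 after chronic T3, 12.60, 12.0 and 12.80 in baseline B, 12.30, 12.30 and 12.05 after acute T3, and 12.41, 12.57 and 12.79 in baseline A. The chronic T3 arrays were far below the other 9, which overlapped. Its difference was -5.61 ± 0.44 (adjusted p = 1.69e-05), with a gap of -0.12, and that of its near-identical neighbour Cyp4a12a -4.77 ± 0.37 with a gap of -0.11, though their probes may read both transcripts. The complement component C6 (-1.87 ± 0.24) and Hsd17b6, which oxidizes androgens (-3.07 ± 0.55), were lower too. So were Cyp2u1 (-3.23), not well above background on any chronic T3 array, and Mcm10 (-1.81). Cyp2d9, Gstp1 and Nudt7 completed the 9, with calls lost in 8, 8 and 7 of the 12 fits without 1 array. Leaving out chronic T3 replicate 1 moved the list median to -0.60.

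Of 20 listed female-biased genes 8 were tested, of which 3 were higher (Cyp17a1, Sult2a2 and Ntrk2) and none lower, with a median of 2.88. The median was 1.95 without chronic T3 replicate 1 and 3.32 without chronic T3 replicate 2. A gene detected after chronic T3 alone, such as Sult2a2, could enter the test through that group. The count and the median are therefore no separate support for a rise of the list. Ntrk2, the receptor of brain-derived neurotrophic factor, stood at 10.07, 10.90 and 10.52 after chronic T3, 5.53, 5.03 and 6.30 in baseline B, 6.14, 6.52 and 6.14 after acute T3, and 5.99, 5.73 and 5.82 in baseline A. The chronic T3 arrays stood apart from the other 9, and no baseline array was well above background. It was at least 16.6-fold higher after chronic T3 than in baseline B, and the fitted difference was 4.46 ± 0.39 (adjusted p = 4.52e-05). Cyp17a1, the steroid 17-alpha-hydroxylase, stood at 13.28, 12.50 and 12.58 after chronic T3, 7.04, 8.16 and 7.41 in baseline B, 8.25, 10.19 and 8.94 after acute T3, and 8.62, 7.27 and 7.97 in baseline A. Chronic T3 again lay above all others, with a difference of 4.08 ± 0.66 (adjusted p = 0.00369), while acute T3 overlapped baseline A (acute effect 1.18, adjusted p = 0.244). Sult2a2, a sulfotransferase of steroids and bile acids, was well above background after chronic T3 alone, with levels of 12.34, 8.79 and 7.73, and was at least 8.99-fold above baseline B.

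Steroid-metabolizing enzymes split, with 3 of 15 tested members higher and 6 lower, against 3.82% and 3.32% of all genes. Sult2a2, detected after chronic T3 alone, could enter the test through that group, so the count of 3 is no separate support for a rise. The list median was -1.07, and -0.62 without chronic T3 replicate 1. It was -0.36 for the direct difference and 0.16 for the gap. The gap was called higher in B in 3 members, against 2.73% of all genes, so not all members had small gaps. Akr1c18, which inactivates progesterone, joined Cyp17a1 and Sult2a2 among the higher ones. It stood at 10.95, 10.66 and 10.19 after chronic T3, 6.29, 5.19 and 5.28 in baseline B, 4.61, 5.0 and 4.97 after acute T3, and 4.82, 4.85 and 7.35 in baseline A. It was not well above background after acute T3, at least 27-fold below chronic T3, and its fitted difference was 5.82 ± 0.79 (adjusted p = 0.00117). Lower were Hsd17b6, Akr1c6, Akr1c14, Akr1c19, Hsd17b11, and Hsd11b1, which regenerates active glucocorticoid and was at -1.07 ± 0.16 (adjusted p = 0.00248) at its main probe and -1.07 and -1.09 at the others. The lower count was 3 without acute T3 replicates 1 or 3, and the calls of Akr1c6, Akr1c14 and Hsd17b11 were lost in 9, 3 and 4 of the 12 fits. Among 17 xenobiotic P450 enzymes Cyp2c29 (-2.57 ± 0.30, adjusted p = 0.000409) and Cyp2d22 (-0.87 ± 0.19, adjusted p = 0.0162) were lower and none higher, against 10 called lower in the chronic effect, and without chronic T3 replicate 3 the lower count was 8. Of all genes 3.32% were called lower in the difference and 10.5% in the chronic effect. A second Cyp2d22 probe gave 0.53, not called. Cyp2c23, an arachidonic acid epoxygenase, stood at 10.40, 10.01 and 10.23 after chronic T3 against 13.4 to 14.1 on the other 9 arrays, and had a difference of -3.27 ± 0.21 (adjusted p = 3.03e-06).

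Other genes of this kind with gaps under 0.4 in size were Acnat2, which joins fatty acids to amino acids (4.53 ± 0.40), Pfkfb4, which sets the level of a glycolysis activator (3.07 ± 0.51), and, lower, the carboxylesterase Ces1f (-2.74 ± 0.28). The ectonucleotidase Nt5e, which makes adenosine, was at 3.46 ± 0.37 with a gap of -1.09. Nox4, an enzyme that makes hydrogen peroxide, was at -3.67 ± 0.41, Ildr2 of lipid handling at -3.18 ± 0.42, the succinate receptor Sucnr1 at -2.93 ± 0.53 and the transporter Abca8a at -2.75 ± 0.42, with gaps of 0.77, 1.15, 1.26 and 0.53. All of these kept the call whichever array was left out. Serpina7, the thyroxine-binding globulin of blood, was at -3.09 ± 0.85 (adjusted p = 0.0447), from 7.44, 4.62 and 4.80 after chronic T3 against 8.50 to 10.1 on the other arrays. It lost the call in 10 of the 12 fits (adjusted p up to 0.0983), and a dimmer probe gave -1.44, not called. Ghr, the growth hormone receptor, was at -0.94 ± 0.21 (adjusted p = 0.018, and 0.0535 when acute T3 replicate 1 was left out), with its other probes at -0.19 and -1.31, not called, and Igf1 at 0.36 ± 0.15 (adjusted p = 0.170). Ghr was the single called gene of 16 of the growth hormone axis, and Serpina7 that of 9 tested thyroid hormone carriers, deiodinases and receptors.

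Macrophage genes were the list with the largest share of differing members. Of 14 tested macrophage and Kupffer cell markers 12 were higher after 14 injections than after 1, against 3.82% of all genes, and none was lower. Marco (3.69, adjusted p = 0.0507) and Aif1 (1.53) did not pass. The median was 1.98 for the difference, 1.65 for the chronic effect, -0.23 for the acute effect and -0.13 for the gap. Their mean level was 10.62, 10.53 and 9.71 on the chronic T3 arrays, 8.75, 8.30 and 8.52 in baseline B, 8.24, 8.80 and 8.40 after acute T3, and 8.44, 8.74 and 8.97 in baseline A. The chronic T3 arrays stood above all others, the dim replicate 3 being the lowest of them. C1qb, a subunit of complement C1q, had levels of 11.66, 11.20 and 10.72 after chronic T3 against 9.0 to 9.68 on the other 9 arrays, and a difference of 2.11 ± 0.33 (adjusted p = 0.00305). The folate receptor Folr2 was at 2.10 ± 0.28, the lysozyme Lyz2 at 2.09 ± 0.28 and C1qc at 2.12 ± 0.37, and the Kupffer cell markers Clec4f, Vsig4 and Timd4 at 1.67, 1.71 and 1.88. Timd4 reached 0.0523 when acute T3 replicate 1 was left out, and Fcgr1 was not called in 8 of the 12 fits. In whole tissue, more cells of a type and more RNA per cell cannot be told apart, and the part of macrophages in the results above was not tested.

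Of 20 tested interferon-induced genes 3 were higher (Ifi27l2a 2.35 ± 0.43, Oas1g 2.12 ± 0.54 and Gbp3 2.08 ± 0.47), against 3.82% of all genes, and none lower, with a median of 0.71. The median was 0.35 without chronic T3 replicate 1 and 1.15 without chronic T3 replicate 3. The count was 1 without acute T3 replicates 1 or 3 and 7 without chronic T3 replicate 3. Oas1g lost the call in 8 of the fits without 1 array and Gbp3 in 2 (adjusted p up to 0.0839). Siglec1, a macrophage receptor, was at 2.50 ± 0.43 (adjusted p = 0.00547). Of 15 endothelial markers 3 were higher, Cdh5 of cell junctions (0.99 ± 0.20), Lyve1 (2.19 ± 0.55) and Gpr182 (0.89 ± 0.22), against 3.82% of all genes, with a median of 0.45. The count was 1 without acute T3 replicates 1 or 3, chronic T3 replicate 1 or baseline B replicate 3, with calls lost for Lyve1 and Gpr182 (adjusted p up to 0.0786). In limma none of 12 stellate cell and fibroblast markers passed (median 0.60, with 4 at an unadjusted p under 0.05), nor any of 12 hepatocyte markers (median -0.11, with 2), Alb of serum albumin being at -0.57 ± 0.22 (adjusted p = 0.132). Of neutrophil, lymphocyte, cholangiocyte and fat or pancreas markers 2 each were tested and none passed, 1 neutrophil marker having an unadjusted p under 0.05.

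Of the 641 genes, 10 had both effects called with the same sign, so that the response differed in size. Ptgis, the prostacyclin synthase, had a chronic effect of 3.45 against an acute effect of 1.44 (difference 2.01 ± 0.40, adjusted p = 0.0104). Synpo, an actin-binding protein, had 3.19 against 1.24 (difference 1.95 ± 0.32, adjusted p = 0.00415). Keg1 fell in both, by 2.53 and 0.96 (difference -1.57 ± 0.29, adjusted p = 0.00779). Wipf3, an actin regulator, had 0.82 against 2.04 (difference -1.23 ± 0.29, adjusted p = 0.0228), the smaller response coming with 14 injections, a gap of 1.07 and a direct difference of -0.15. Wipf3 lost the call of the difference without acute T3 replicate 1 or baseline B replicates 1 or 3 (adjusted p up to 0.0586). Single acute calls were lost in 5 of 6 fits for Ptgis, 4 for Synpo and 6 for Keg1.

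Several housekeeping and metabolic lists had few members or none called, beside 3.82% of all genes called higher and 3.32% lower. In limma, of 22 tested proteasome subunits, 18 genes of bile acid synthesis and transport, 16 of mitochondrial biogenesis and uncoupling, 22 antioxidant and glutathione genes and 15 immediate early and heat shock genes none passed, with medians between -0.28 and 0.11. An unadjusted p under 0.05 was reached by 0, 3, 3, 3 and 4 of their members in the same order, against 2082 of 8976 genes in all. Of 24 oxidative phosphorylation genes 1 was higher (Ndufa1, 0.60 ± 0.15) and of 17 ribosomal protein genes 1 was lower (Rpl22, -0.78 ± 0.20), and both calls were lost in 5 or more fits without 1 array. Of 16 genes of cholesterol synthesis and uptake 1 was higher (Lss, 1.24 ± 0.30, lost in 6 fits, with a dimmer probe at -0.22). In the chronic effect 9 were called higher and in the acute effect 5, against 12.4% and 1.47% of all genes. Of 22 fatty acid oxidation genes Ppara and Acaa1a (-0.67 ± 0.19, lost in 10 fits) were lower. Of 23 genes of amino acid catabolism and the urea cycle Otc alone was lower (-0.89 ± 0.21), with the call lost when baseline B replicate 3, acute T3 replicate 1 or baseline A replicate 3 was dropped (adjusted p up to 0.0670). Etnppl, which breaks down phosphoethanolamine, did not pass (-3.75 ± 1.11, adjusted p = 0.0610) but did with the replicate number as a block (0.0467) and without chronic T3 replicate 1 (-5.02), where the list had 2 lower members. Of 20 apolipoprotein and lipoprotein assembly genes Apoa4 (3.07 ± 0.75, lost in 6 fits) and Lpl were higher. Of 15 antigen presentation genes the protease Ctss alone was higher (1.06), and of 26 complement and acute phase genes Apcs was higher (1.04) and C6 lower, with the calls of Ctss and Apcs lost in 8 and 11 of the fits without 1 array and under the replicate block (adjusted p = 0.0603 and 0.0573).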

How the data were processed

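Liver RNA, from 15 to 20 mg of tissue per the labels' protocols, was read on Illumina bead arrays as biotin-labelled cRNA. The deposited table gives for each probe and array a linear signal intensity and a detection p-value, per the file headers, and arrays had not been brought to a common scale. The authors' normalized values are linear intensities with the same distribution on every array, and served as an alternative. Partek 6.6 is named in the submitters' processing notes without a role, and the image software is not given in the sources used here.

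Intensities were background-corrected with the negative-control information in the detection p, quantile-normalized with an offset of 16 and put on the log2 scale (neqc, limma 3.58.1, R 4.3.3); the log2 values are not the authors'. Of 45281 probes, 34885 had 1 gene, 18 several and 10378 none in the platform annotation, with symbols updated through RefSeq (GRCm38.p6). The 15361 probes detected (p under 0.01) on at least 3 of 15 arrays were kept, and the brightest probe stood for a gene, which gave 8976 genes, 3085 of them with several kept probes. A probe detected in a single group could pass this filter through the group where it was high. A single limma fit with a mean for each of 5 groups, the T3 withdrawal arrays included, gave all comparisons and their adjusted p (Benjamini-Hochberg). Tested on simulated data for 8976 genes, the fit called a difference of effects in 6 of 67 genes at a true fold of 1.5, in 25 of 67 at 2 and in 56 of 66 at 4, and 4 of 91 calls were wrong. The simulated noise was independent between genes and arrays, and the change was put into chronic T3 alone. Shared shifts of an array and gaps between baselines were not simulated, so the share of wrong calls need not hold for the real arrays.

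The comparison and the gene lists were chosen with earlier results of these data known. Genes named are the largest differences called in every fit without 1 array and detected in each group, genes set for the question, up to 3 of each list by adjusted p, and the 5 highest and lowest of each class by effect sign and by size of the gap. Other list members, namely those of replication, clock, stress, steroid, male-biased, macrophage and T3-induced lists given without levels, were named after their values were seen. Residuals of same-numbered baseline arrays correlated at 0.126, 0.250 and 0.195. The values were 0.058, -0.416 and -0.375 for chronic T3 and baseline A, and -0.214, 0.092 and 0.347 for chronic and acute T3. They do not establish a pairing, and the replicate number served as a block over all groups in an alternative setting alone. For chronic T3 and baseline B the values were 0.120, -0.198 and -0.0144, and for acute T3 and baseline A -0.00415, -0.281 and -0.271.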

Additional observations from a re-analysis of the deposited data

Results flagged for a closer look

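In 641 genes the effects of 14 injections and of 1 differed by a test of the difference itself. In 6 of them both effects were called with opposite signs, with differences of effects of 5.46 for Cdkn1a, 2.81 for Nupr1, -1.60 for Olfml1, -1.77 for Rassf3, -2.12 for Slc2a2 and -1.19 for Vti1a. Among 2123 detected probes without a single annotated gene, which entered no comparison above, 73 were also called in the difference of effects (3.44%).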

How the results depend on the processing

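The difference of effects was called in 775 genes with no background correction, 739 with normexp and an offset of 50, 834 with median scaling, 768 with the authors' normalized values, 433 with no filter, 606 with detection on at least 12 arrays, 448 with array weights and 467 with the 12 arrays alone, against 641. At an adjusted p under 0.01 it was called in 167 (88 higher, 79 lower), and in 439 with a size over 1, 178 of them lower. No filter left 194 lower, and chronic T3 replicate 1 alone in its group, a choice made after seeing the data that assumes it to vary like the other groups, gave 549 higher. With both effects set against the 6 baseline arrays together the gap drops out by construction, 1296 genes were called (550 higher, 746 lower), and of the named genes called in the difference 8 changed sign: Chka (-0.18), Arntl (-0.43), Clock (-0.29), Pklr (0.091), Usp2 (1.77), Thrsp (0.81), Rgs16 (0.82) and Dbp (0.15). So did the direct difference of 32 of all 641 called genes, and values near 0 of named genes not called, among them Me1 (0.39), Fasn (0.15), Fos (0.12) and Klf9 (-0.10). Under the other settings no named gene that was called changed sign, while several with differences near 0 did, such as Gpd2, Dio1, Klf9, Me1 and Fos.

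Leaving out 1 array gave 311 to 916 genes for the difference of effects, 167 to 582 higher and 144 to 334 lower, 621 to 1419 for the direct difference, 128 to 1717 for the gap, 1376 to 2152 for the chronic effect and 48 to 235 for the acute effect. The extremes came without acute T3 replicate 1 and chronic T3 replicate 3 for the difference, and without baseline A replicates 1 and 2 for the gap. The direct difference fell to 621, 846 and 752 without acute T3 replicates 1, 2 and 3. The share of higher calls was 53.5%, and 63.5% without chronic T3 replicate 3.

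With only the arrays compared the counts were 767 for the direct difference, 248 for the gap, 1052 for the chronic and 105 for the acute effect. At an adjusted p under 0.01 they were 492, 107, 978 and 41, and with a size over 1 they were 473, 260, 729 and 83. The gap had 501 genes with no filter, 1323 over single probes and 79 with array weights. The acute effect had 296 with no background correction, 295 with the authors' values, 109 with no filter, 288 with trend and robust moderation, 65 with array weights and 126 with the 12 arrays alone. Apart from the gap's removal, the causes were not tested.

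With the replicate number as a block over all groups, a pairing that the residuals do not establish, the difference of effects had 569 genes and the gap 659. Among named genes the difference of Asns (adjusted p = 0.0642) and Rpl22 (0.0544) missed the threshold, as did Ctss and Apcs, while Hsph1 and Etnppl passed it. Dim signals limit the folds of genes not well above background to bounds.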
